A study of Mus musculus with 12 samples.

Results

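Among the chromatin regions that splenic natural killer (NK) cells of mice open under IL-12 and IL-18, 252 were already called in resting cells without Regnase-1, although no resting wild-type library called them. They came from 12 ATAC-seq libraries in 4 groups of 3: knockout cells (KO, Reg-1ΔNK, in which Regnase-1 is deleted in NK cells) stimulated with IL-12/18, KO control cells without stimulation, wild-type cells (WT, Reg-1fl/fl, carrying the floxed allele) stimulated with IL-12/18, and WT control cells. The sources used here do not name the Cre line behind the deletion, the age of the mice, or whether the 3 libraries of a group came from separate animals. A region was called in a library when it overlapped one of that library's strongest deposited peak intervals, taken in equal number from every library. That number, called the limit, was the length of the shortest list and falls between ranks 35101 and 35121. In all, 45082 regions were called in at least 2 libraries. The 252 were chosen by 3 of 3 calls in KO control, 3 of 3 in WT stimulated and 0 of 3 in WT control libraries. Calls in those 9 libraries are therefore a description and support nothing. The choice did not use the calls of the KO stimulated libraries. Their intervals still took part in merging the regions, and replicate 1 of that group, the shortest list, set the limit. Without its intervals, at the same limit, the rule gave 254 regions.

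ATAC-seq marks DNA that a transposase can reach. In lymphocytes most such sites away from promoters are enhancers, which bind lineage factors at rest and gain binding of STAT, NF-kB and AP-1 factors when cytokines signal. IL-12 acts through the receptor chain IL-12Rb2, the kinase JAK2 and STAT4, and IL-18 acts through MyD88 and NF-kB. Zc3h12a encodes Regnase-1, an enzyme that cuts messenger RNAs of inflammatory genes, with Il6 as the best-known target, and that is known to act on RNA rather than on chromatin.

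The deposited files hold no sequence, but 10 promoter windows of 9 genes in the RefSeq promoter table (assembly GRCm38.p6, the assembly behind mm10) overlapped the 252 regions, 7 of them wholly. Each window is 300 bases, from 250 before a start site to 50 after it. The promoters of Il6, which encodes the inflammatory cytokine interleukin 6, of Slc11a1, which encodes a metal transporter of phagocytic vacuoles, and of Phf11b are shown as 3 of the 7 that lay wholly inside a region, picked after their values were seen. At the Slc11a1 and Phf11b regions no WT control library held a deposited interval, and at the Il6 region 1 did. Capitals mark matches, on either strand, to the motifs searched: AP-1 (TGANTCA), NF-kB (GGG, any 2 bases, TTTCC), STAT (TTCNNNGAA), RUNX (TGTGGT), ETS (CCGGAA), IRF (GAAA, any 2 bases, GAAA) and T-box (GGTGTGA).
Il6 promoter, chr5:30012864-30013163, plus strand: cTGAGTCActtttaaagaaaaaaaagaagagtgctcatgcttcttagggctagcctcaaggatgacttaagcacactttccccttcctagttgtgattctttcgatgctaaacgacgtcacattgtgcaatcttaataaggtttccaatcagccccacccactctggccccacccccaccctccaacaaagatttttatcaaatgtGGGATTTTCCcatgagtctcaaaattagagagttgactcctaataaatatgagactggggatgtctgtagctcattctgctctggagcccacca
Slc11a1 promoter, chr1:74374953-74375252, plus strand: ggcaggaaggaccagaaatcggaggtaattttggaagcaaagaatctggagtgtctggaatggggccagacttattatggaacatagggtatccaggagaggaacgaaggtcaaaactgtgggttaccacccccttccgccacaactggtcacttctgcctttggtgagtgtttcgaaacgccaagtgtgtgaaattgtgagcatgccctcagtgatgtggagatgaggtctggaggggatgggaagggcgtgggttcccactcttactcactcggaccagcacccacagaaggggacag
Phf11b promoter, chr14:59341281-59341580, minus strand: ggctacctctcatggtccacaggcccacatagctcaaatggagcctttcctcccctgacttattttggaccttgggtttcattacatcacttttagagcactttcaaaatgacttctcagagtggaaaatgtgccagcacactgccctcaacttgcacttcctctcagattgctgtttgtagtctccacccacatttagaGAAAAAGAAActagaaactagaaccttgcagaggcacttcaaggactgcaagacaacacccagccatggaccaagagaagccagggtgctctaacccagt
The Il6 window held an AP-1 match starting at its base 2 and an NF-kB match starting at base 207, counted from 1 at the 5′ end. The Phf11b window held an IRF match starting at base 201, and the Slc11a1 window held no match to any of the 7 motifs. Over the 10 windows, 4 held AP-1 (against 7.81% of all 32851 windows in the table), 2 held NF-kB (against 1.63%), 2 held RUNX (16.8%), 1 held STAT (8.30%), 1 held IRF (3.44%) and none held ETS (14.9%) or T-box (3.98%). No motif matches overlapped in the 3 windows shown. The 10 windows are too few to set apart from the table, and a match is a string of letters, not a site known to be bound. Sequence of the regions outside promoters was not analysed here.

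Stimulation of WT cells gave 4245 regions with calls in all 3 WT stimulated libraries and none in WT control, here called WT gained, which is 9.42% of all regions. Of these the 252 made up 5.94% (Wilson 95% interval 5.26 to 6.69, counting error only). The share was 2.29% with calls that cover 50% of a region and 3.19% with intervals of a −log10 q of at least 10. KO control libraries called 3 of 3 and WT control libraries 0 of 3 at 516 regions, 1.14% of all regions. Both comparisons share the WT control libraries, so that a region missed there enters both counts. Reading a WT control library left out of the choice removes that library's own part in the sharing. The remaining WT control libraries still chose the regions by having no call, which leans against calls in the left-out replicate. When WT gained regions were chosen without WT control replicate 1, the 3 KO control libraries called 15.5%, 13.2% and 16.6% of 4639 regions, against 8.49% in the WT control library left out. Without WT control replicate 2 the KO control libraries called 627, 522 and 666 of 4435 regions, against 190 in the WT control library left out. Without WT control replicate 3 they called 15.9%, 13.0% and 16.6% of 4586 regions, against 7.44%. Each KO control library thus called more of the gained regions than the WT control library in all 3 arrangements. The choice on WT control calls leans that way, and the arrangements share libraries and regions, so they carry no test.

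**Figure D1:**
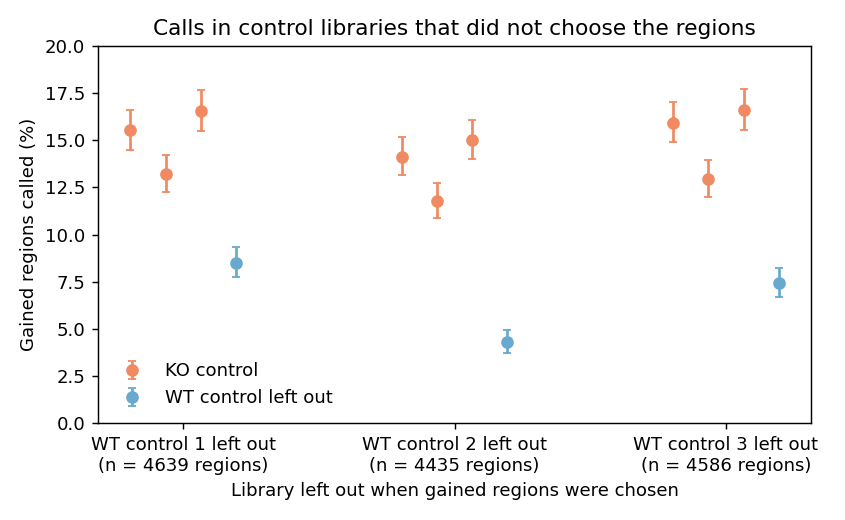
Percent of WT gained regions called in each control library when 1 WT control library took no part in choosing the regions (points, with Wilson 95% intervals of counting error). The 3 KO control libraries lie between 11.8% and 16.6% and the WT control libraries left out between 4.28% and 8.49%.

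The choice of the 252 was also made with 1 library fewer, and the library left out was then read, beside its share over all regions. The KO control library left out called 81.3%, 70.4% and 84.8% of the regions chosen without it, for replicates 1, 2 and 3, against 73.9%, 74.0% and 74.6% of all regions. The share was thus above that of all regions in replicates 1 and 3 and below it in replicate 2. The WT stimulated library left out called 95.5%, 96.9% and 96.9%, against 74.6%, 75.3% and 75.8% of all regions. Of regions chosen on the other 2 WT control libraries, the WT control library left out called 29.6%, 16.3% and 29.2%, against 73.0%, 74.8% and 75.2% of all regions.

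The KO stimulated libraries called nearly all of the 252. They called 92.1%, 97.6% and 99.6% of them in replicates 1, 2 and 3 (Wilson 95% intervals 88.1 to 94.8, 94.9 to 98.9 and 97.8 to 99.9), against 60.1%, 64.9% and 83.7% of the 3402 WT gained regions with no call in any KO control library. All 3 KO stimulated libraries called 228 of the 252 (90.5%, 86.2 to 93.5), against 58.6% of all 45082 regions. A further 22 were called in 2 of them, 1 in 1 and 1 in none, the region near Ceacam9. The bases differ, since all regions include those called in only 2 libraries and the 252 had every KO control and WT stimulated call. The share of 90.5% became 71.8% with all deposited intervals and 65.2% with intervals of a −log10 q of at least 10. Over all regions 15.4% had no KO stimulated call, and 4.65% had none together with 3 of 3 KO control calls. WT gained regions with 0, 1, 2 and 3 KO control calls numbered 3402, 382, 209 and 252, and 47.8%, 68.3%, 73.2% and 90.5% of them were called in all 3 KO stimulated libraries. The share was higher with each further KO control call in KO stimulated replicates 1 and 2, and in replicate 3 it was 95.3% and 94.7% at 1 and 2 calls. Replicate 1 has the shortest deposited list, and all of its intervals were kept.

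**Figure D2:**
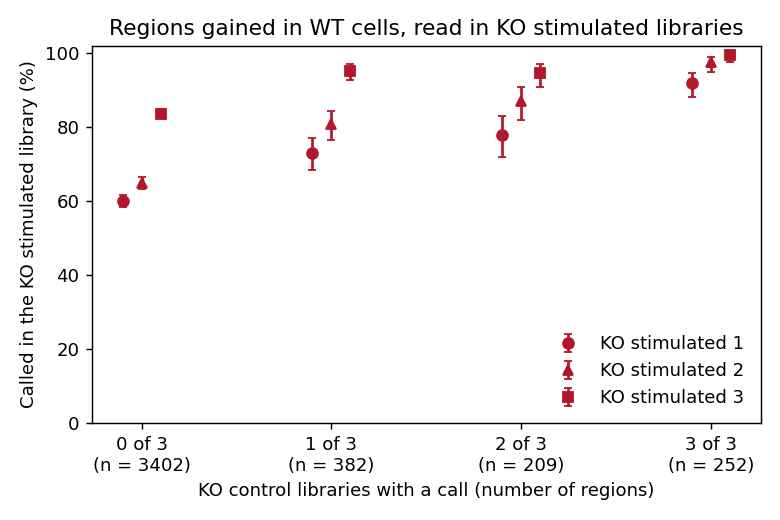
WT gained regions grouped by how many KO control libraries called them (x axis, number of regions in brackets), and the percent called in each KO stimulated library (y axis, with Wilson 95% intervals). The 252 regions with 3 of 3 KO control calls reach 92.1% to 99.6%, and the 3402 regions with none reach 60.1% to 83.7%.

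The 252 were also stronger in the WT stimulated libraries than the 3402, with a median over regions of the mean rank of 20291 against 25228 (rank 1 is the strongest interval of a library). The WT gained regions were therefore split by that rank into 4 classes of equal size. The split did not match width, and a call needs 1 bp of overlap. Median width was 1051 bp for the 252 and 819 bp for the 3402, and the part of width was not tested. In the strongest class 97.5% of 119 of the 252 regions were called in all 3 KO stimulated libraries, against 82.8% of 740 regions without KO control calls. In the second class the shares were 88.1% of 59 and 55.5% of 861, in the third 87.2% of 39 and 37.7% of 891, and in the weakest 74.3% of 35 and 21.8% of 910. The share was larger for the 252 in all 4 classes. KO stimulated and KO control libraries share their genotype, and its part in this difference was not tested.

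**Figure D3:**
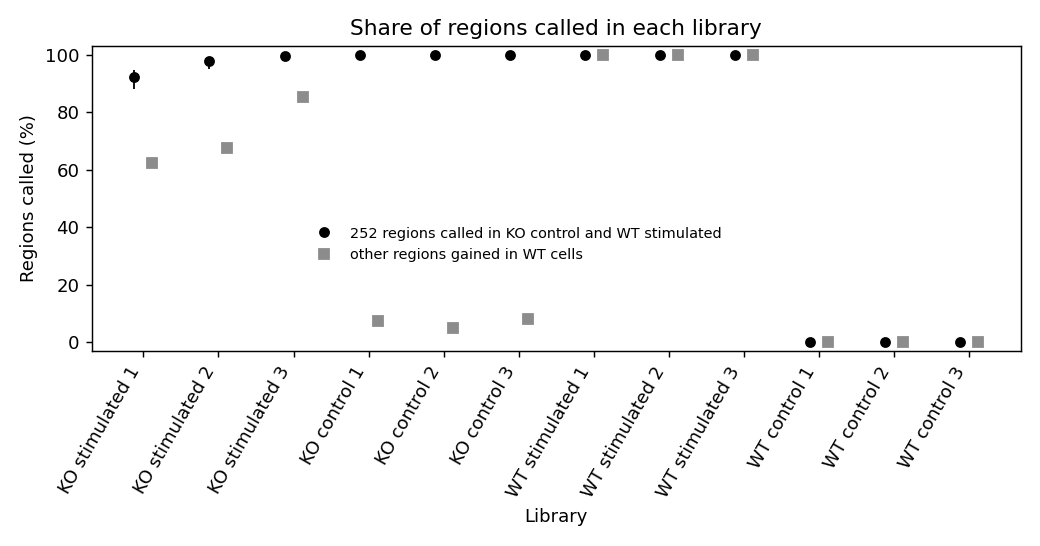
Percent of regions called in each library for the 252 regions (circles) and for the other 3993 WT gained regions (squares). The values of 100% and 0% in KO control, WT stimulated and WT control libraries follow from the choice of regions. In the KO stimulated libraries, with Wilson 95% intervals, the 252 reach 92.1% to 99.6% and the others 62.2% to 85.4%.

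Ranks show how the regions differed among themselves. At the 252 the strongest deposited interval had a median rank of 14746, 15776.5 and 15486.5 in KO stimulated libraries (over the 232, 248 and 252 regions with an interval), of 27398.5, 28198 and 28161 in KO control, and of 20101.5, 19984 and 20248 in WT stimulated libraries. A rank is a place within 1 library's own list, the lists differ in length, and the limit cuts the ranks of the KO control and WT stimulated libraries, so an order of ranks shows no change in opening. In 152 regions all 3 KO control ranks were weaker than all 3 WT stimulated ranks, in 14 all were stronger, and in 86 they overlapped. Of 673 other WT gained regions with an interval in all 6 libraries, all KO control ranks were weaker in 609 (90.5%) and stronger in none. Each of those regions lacked a call in at least 1 KO control library, so the choice fixed that none was stronger. It leans the count of weaker ones the same way. Of the 229 regions with an interval in all 6 stimulated libraries, all 3 KO stimulated ranks were stronger than all 3 WT stimulated ranks in 123 (53.7%) and weaker in 5 (2.18%). Of 2241 other WT gained regions with such intervals, they were stronger in 300 (13.4%) and weaker in 299 (13.3%). All 3 KO stimulated ranks were stronger than all 3 KO control ranks in 188 of the 229 (82.1%) and weaker in none, against stronger in 501 of 550 other WT gained regions with such intervals (91.1%) and weaker in none. The missing KO control calls lean the count for the 550 that way too. ATAC-seq of a population cannot tell apart a site that is open in more of the cells from a site that is more open in each cell.

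**Figure D4:**
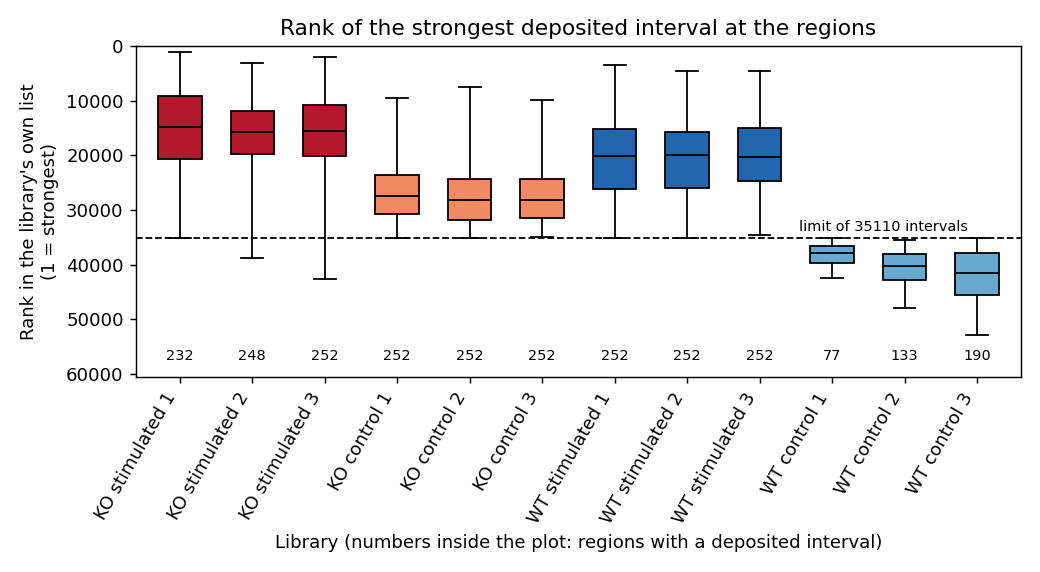
Rank of the strongest deposited interval at the 252 regions in each library (y axis, 1 at the top is the strongest). Boxes show the median and quartiles, whiskers the full range, the dashed line the limit, and the numbers inside the plot how many of the 252 had an interval. WT control intervals all lie past the limit by the choice of regions.

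That the 252 were closed in resting WT cells holds only as a statement on rank. A deposited interval past the limit was present at 77, 133 and 190 of the 252 in WT control replicates 1, 2 and 3, with median ranks of 37937, 40251 and 41425, in lists of 42520, 48324 and 53440 intervals. All 3 WT control libraries had one at 59 regions, 2 at 81, 1 at 61 and none at 51 (20.2%, Wilson 95% interval 15.7 to 25.6), against none at 69.4% of the 3402 WT gained regions without a KO control call. With WT control replicate 3, the longest of the 3 lists, left out of the choice and the count, the share was 38.2%. The strongest WT control interval lay within 5000 ranks of the limit at 131 of the 252 regions, and the weakest of the 6 KO control and WT stimulated intervals did so at 158. Just inside the limit were the regions at Lpp (weakest rank 35101) and Zfp3 (35097), and just outside it, through 1 library, regions at Nxf2 (35121) and Lacc1 (35134). On the WT control side, Tprg (strongest WT control rank 35136) and Zdhhc14 (35143) were just kept, while Slc1a2 (35103) and Trio (35091) were left out by 1 WT control interval. In all, 237 regions missed the set through 1 of the 6 libraries and 259 through 1 WT control library.

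Other limits took other regions. With 50% of the number of intervals per library the same rule gave 104 regions, of which 4 overlapped the 252 (1.59% of the 252 and 3.85% of the 104). With all deposited intervals it gave 298, of which 51 overlapped (20.2% of the 252 and 17.1% of the 298). With calls that cover 50% of a region it gave 107, of which 60 overlapped. The 51 regions without any WT control interval are thus the ones in the set under both the limit and all deposited intervals, and 47 of them (92.2%, Wilson 95% interval 81.5 to 96.9) were called in 3 of 3 KO stimulated libraries.

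The regions lay away from genes' ends, as the other gained regions did. Within 1 kb of an end of a protein-coding gene were 11 of the 252 (4.37%, Wilson 95% interval 2.45 to 7.65), against 4.63% of the other 3993 WT gained regions and 27.5% of all regions. With 50% of the number of intervals per library the share was 9.62%. Inside a gene body and over 1 kb from any gene end were 139 (55.2%, 49.0 to 61.2), against 50.3% of the other WT gained regions and 40.7% of all regions. The median distance to a start site in the RefSeq table was 23.4 kb over the 248 regions on its chromosomes, against 20.5 kb for the other WT gained regions and 11.1 kb for all regions. A start site lay within 1 kb of 5.24% of these 248 (Wilson 95% interval 3.09 to 8.76). Counted in the same way, the share was 3.25% of the other WT gained regions and 24.95% of all regions. Median width was 1051 bp (quartiles 865.5 to 1449.25), against 834 bp for the other WT gained regions and 1193 bp for all regions. Exons, introns and untranslated regions were not analysed here.

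The median gap between neighbours was 5.31 Mb, and 16 regions lay within 50 kb of another. Chromosome 2 held 28 (11.1%, against 7.83% of all regions), chromosome 1 held 25 (9.92%, against 6.499%), chromosome 11 held 22 (8.73%, against 7.87%), X held 1 (0.397%, against 1.64%) and Y none. A gene body within 50 kb was found for 228 regions, with 218 genes in all, 10 of them with 2 regions and none with more. Chromosome 4, which carries Zc3h12a, held 10 regions (3.97%, against 6.26% of all regions), and 1 of them lay within 5 Mb of the gene.

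Zc3h12a, the deleted gene, had 8 regions within 50 kb. Of these 8, 8 and 8 were called in KO stimulated, 7, 7 and 8 in KO control, 8, 8 and 8 in WT stimulated, and 7, 7 and 6 in WT control libraries. The sources used here do not say which part of the gene is deleted, so these calls do not check the genotype. The region that belongs to the set, chr4:125145210-125145951 (mm10, as for all coordinates here), lay 17.3 kb above the gene. Its ranks were 24676, 18705 and 14898 in KO stimulated, 31104, 28217 and 31922 in KO control, 18627, 21171 and 20654 in WT stimulated, and 40096, 39572 and 45045 in WT control libraries.

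At Il6, 2 regions of the set were found. The one over its start site, chr5:30012343-30015479, ranked 5931, 8169 and 8302 in KO stimulated, 22631, 18306 and 21298 in KO control and 18034, 19927 and 20182 in WT stimulated libraries, and 1 WT control library held an interval, at rank 43204. KO control and WT stimulated ranks overlapped there, and the KO stimulated ranks were stronger than both. The second region, chr5:29919760-29921437, lay 91.7 kb below the gene, with Il6 as the nearest protein-coding gene. It ranked 2883, 3824 and 4807 in KO stimulated, 16191, 16238 and 16735 in KO control and 8723, 8610 and 8187 in WT stimulated libraries, and no WT control library held an interval of any strength. The 3 groups with intervals did not overlap in rank.

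Over all 14320 protein-coding genes with a region within 50 kb, 2616 had a WT gained region and 218 (1.52%) a region of the set. The counts for each gene list stand beside these, but listed genes hold more regions each. The 289 listed genes with a region had 1622, against 41202 for the 14320, which leans shares counted by genes upward. Shares counted by regions follow below. Of 23 genes for cytokines and chemokines, 22 had a region within 50 kb, 9 had a WT gained region and 4 had 1 of the 252: Il6, Ifng, Xcl1 and Il10. Ifng encodes interferon gamma, the main cytokine of stimulated NK cells. Its region, chr10:118494426-118496340, lay 48.5 kb above the gene and ranked 6145, 8104 and 7799 in KO stimulated, 19984, 18398 and 21961 in KO control and 9689, 10262 and 8123 in WT stimulated libraries, with 1 WT control interval at rank 43261. A second region of the set with Ifng as its nearest gene, chr10:118505891-118508027, lay 59997 bases above it and had intervals in all 3 WT control libraries, at 41574, 37666 and 36253. The other 2 WT gained regions within 50 kb of Ifng had no KO control call. Il10 encodes an anti-inflammatory cytokine. Its region, chr1:131037962-131038589, 13.0 kb above the gene, ranked 13288, 14563 and 14055 in KO stimulated, 32253, 31894 and 30961 in KO control and 26857, 23284 and 23222 in WT stimulated libraries, with no WT control interval. At Xcl1, a chemokine that attracts dendritic cells, the region 9.87 kb above the gene had an interval in all 3 WT control libraries, the strongest at rank 35460.

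Of 28 genes for cytokine receptors, JAK kinases, STATs and their inhibitors, 7 had a WT gained region and 2 a region of the set. Il12rb2, the signalling chain of the IL-12 receptor, had it at chr6:67377828-67378612, 1.54 kb above the gene. It ranked 29888, 15977 and 23944 in KO stimulated, 23886, 27681 and 21327 in KO control and 23120, 25901 and 24463 in WT stimulated libraries, so the 3 groups overlapped, and 2 WT control libraries had intervals at 37856 and 38959. Jak2, the kinase bound to that chain, had its region inside the gene body at chr19:29270417-29272263. It ranked 16793, 12646 and 16725 in KO stimulated, 27438, 28733 and 29590 in KO control and 24706, 28878 and 22725 in WT stimulated libraries. One WT control interval lay there, at rank 40251. Of 26 NF-kB and MyD88 pathway genes 10 had a WT gained region and none a region of the set, and of 14 AP-1 family genes with any region 7 and none. In lists of this size none is near the 1.52% of all genes.

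Of 43 transcription factors of NK cells, 24 had a WT gained region and 3 a region of the set: Zeb2 and Prdm1, which drive terminal maturation, and Nfil3, which NK cells need to develop. The region 25.4 kb below Zeb2, chr2:44955917-44958080, ranked 1753, 4060 and 4249 in KO stimulated, 32689, 28769 and 27644 in KO control and 5859, 5967 and 4971 in WT stimulated libraries, with no WT control interval. Its ranks in both stimulated groups were stronger than all 3 KO control ranks. The Prdm1 region, 3.84 kb above the gene, was called in 2 of 3 KO stimulated libraries, with no interval in replicate 1. The Nfil3 region, 27.5 kb above, ranked 31579, 34483 and 32307 in KO control libraries and had intervals in 2 WT control libraries, at 36117 and 37058.

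Of 20 genes of RNA decay and reported Regnase-1 targets with a region, 3 had a region of the set, the Il6, Ifng and Zc3h12a ones above, and 10 had a WT gained region. Of 30 growth and metabolism genes 10 had a WT gained region and 3 a region of the set. They were Cdk6, a cell-cycle kinase, with ranks of 25291, 21465 and 19412 in KO control libraries, Bcl2, which blocks cell death, with 27157, 24305 and 26154, and Pim1, a kinase induced by cytokines, with 28009, 32998 and 31176. At Pim1 the single WT control interval stood at rank 35151, just past the limit. Of 21 checkpoint and costimulation genes Ctla4, an inhibitory receptor, was the 1 with a region of the set, among 9 with a WT gained region. Of 20 cytotoxic granule genes it was Rab27a, a GTPase for granule release, among 6. Ctla4 had a WT control interval in all 3 libraries, the strongest at 39846. None of 23 NK receptor, 23 homing and 9 ubiquitous genes with a region had a region of the set.

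**Figure D5:**
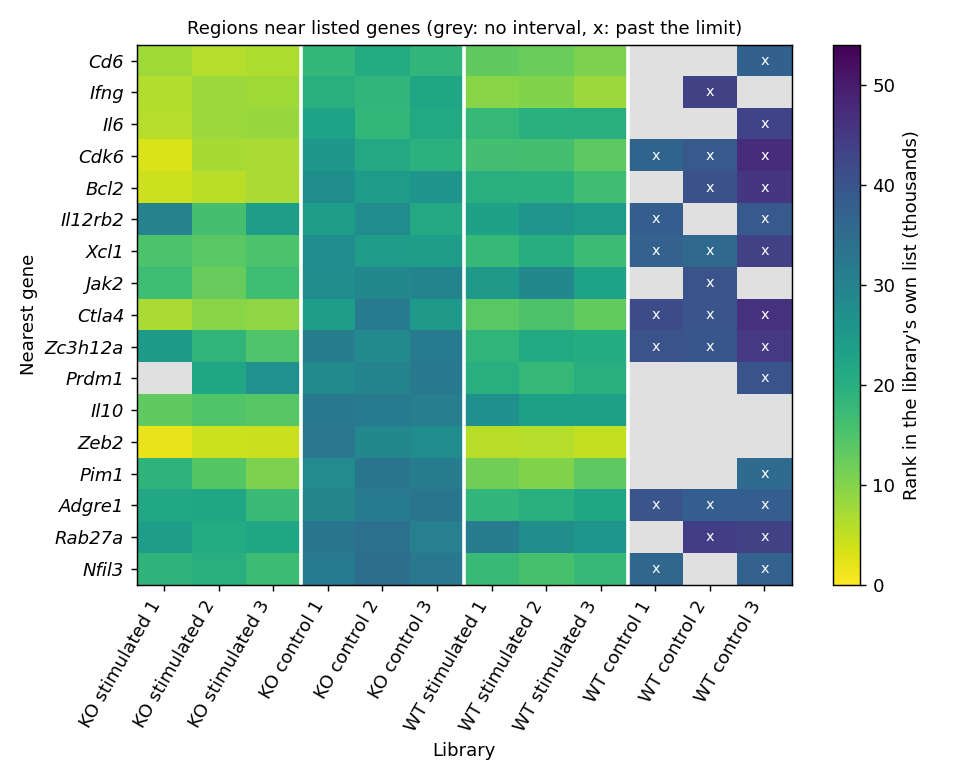
Rank within its own library's list (colour scale) of the strongest deposited interval at the regions near the 17 listed genes, 1 row per gene and 1 column per library. Grey cells have no deposited interval and crosses mark intervals past the limit. The KO stimulated and WT stimulated columns reach the strongest ranks, as at Zeb2, and the WT control columns hold only grey or crossed cells.

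Across all lists, 17 of 289 genes with a region had a region of the set (5.88%). Counted by regions, the set took 17 of 1622 near listed genes (1.05%) and 228 of 41202 near any gene (0.553%). Of the WT gained regions it took 17 of 177 (9.60%) and 228 of 3619 (6.30%). Cytokine and chemokine genes had 4.08% by regions and 30.8% by WT gained regions. The RNA decay, receptor, growth and granule lists had 2.91%, 1.37%, 1.36% and 1.32%, and 20%, 20%, 15% and 11.1%. Checkpoint genes had 0.862% and 5.88%, NK transcription factors 0.758% and 7.14%, T cell markers 7.14% and 50%, and myeloid markers 5.56% and 33.3%. Each share by WT gained regions rests on 2 to 42 regions, and the other lists had no region of the set. The lists were written with earlier results of these data known, and no enrichment was tested. Start sites of the 5 NK markers Ncr1, Klrb1c, Klrk1, Eomes and Tbx21 were within 1 kb of a called region in all 12 libraries. Those of 4 of 5 B cell, 4 of 6 T cell, 4 of 7 myeloid and 5 of 7 erythroid markers were near a called region in no library. The others were near one in several libraries: Ebf1 (B cell) in 7, Cd5 and Bcl11b (T cell) in 6 and 12, Itgam, Fcgr1 and Cebpa (myeloid) in 11, 11 and 12, and Klf1 and Epor (erythroid) in 12 each. Cd6, a T cell surface receptor, and Adgre1, the macrophage marker F4/80, each had a region of the set and no start site in the table, so that 1 of 5 T cell and 1 of 7 myeloid genes with a region had one, against none of 4 B cell and none of 4 erythroid genes. Whether other cells in the samples take part in those 2 was not tested.

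The 10 regions with the best weakest rank over KO control and WT stimulated libraries were nearest to Ppfibp2, Taok3, Il6, Prrc1, Pde11a, Stx6, Urb1, Gm3646, Ren1 and Ptprj. Ppfibp2 encodes a liprin, a scaffold protein. Its region chr7:107609257-107611574, inside the gene, ranked 4539, 5690 and 6014 in KO stimulated, 10232, 7432 and 11901 in KO control and 14035, 13144 and 13853 in WT stimulated libraries, with WT control intervals at 40563 and 39025 in 2 libraries. All KO control ranks were stronger than all WT stimulated ranks there. At Taok3, a kinase gene, the order was the other way, with 16414, 15890 and 14953 in KO control and 3429, 4530 and 4667 in WT stimulated libraries, and the 3 WT control libraries had intervals at 36653, 38122 and 38192. At Urb1, a gene of ribosome assembly, chr16:90798636-90799383 ranked 23016, 12470 and 8076 in KO stimulated, 15017, 15294 and 17481 in KO control and 16423, 18584 and 13895 in WT stimulated libraries, with no WT control interval. KO control and WT stimulated ranks overlapped.

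Ptprj, a receptor-type tyrosine phosphatase, had a region inside the gene with 18438, 19268 and 20279 in KO control and 19034, 13428 and 11772 in WT stimulated libraries, again with no WT control interval. Of the regions without a WT control interval and with 3 of 3 KO stimulated calls, the 10 with the best ranks were nearest to Il6, Urb1, Ptprj, Sae1, Ern1, Slc6a6, Stap1, Optn, Gpatch2l and Gm52720. Sae1 encodes a subunit of the enzyme that activates SUMO, Ern1 the endoplasmic reticulum stress sensor IRE1, Slc6a6 the taurine transporter and Optn the autophagy receptor optineurin. The Ern1 region, chr11:106483866-106486245, inside the gene, ranked 23975, 17257 and 12887 in KO stimulated, 20597, 21968 and 18148 in KO control and 16880, 19827 and 18622 in WT stimulated libraries. All 3 groups overlapped.

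The 10 genes with 2 regions within 50 kb were Ppfibp2, Creb5, Vezt, Kcnk10, Prr5l, Pla2g3, Pttg1, Fars2, Abtb2 and Inpp4b. Creb5 encodes a factor of the CREB and ATF family, Prr5l a partner of the mTORC2 kinase complex, Pttg1 securin, which guards chromosome separation, and Inpp4b a phosphoinositide phosphatase. Il6, Ifng and Tet2 were each the nearest gene to 2 regions as well, 1 of them over 50 kb away. Both Kcnk10 and both Inpp4b regions had no WT control interval. The wider Prr5l region, chr2:101825825-101829608, with 3784 bp the widest of the 252, ranked 4509, 9298 and 10951 in KO stimulated, 21431, 16749 and 25277 in KO control and 31785, 34617 and 29634 in WT stimulated libraries. There all KO control ranks were stronger than all WT stimulated ranks, and 1 WT control library had an interval, at 51933.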

How the data were processed

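ATAC-seq peak lists of 12 libraries were used, 3 per group by the sample titles, each made from 100000 NK cells per the labels' protocols. The authors called peaks per library, since each list carries its own library's name. The submitters' processing notes name MACS2 2.1.1.20160309, Bowtie2 2.3.4.1 and build mm10, with no role or settings, and nothing read here says if read ends were moved to the transposase's insertion site. The deposited fold is a ratio over the library's own background, and the deposited −log10 p-value and −log10 q-value belong to a peak's summit within its library. These values of the authors served to rank intervals within a list. Read depth is unknown, as peak lists give none.

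Intervals on chromosomes 1 to 19, X and Y were reduced to distinct ones with their strongest summit, of which the longest list held 63128 (WT stimulated replicate 3). Every list was cut to the length of the shortest, KO stimulated replicate 1, by the highest −log10 q, with ties by −log10 p, then chromosome name and position. The last interval kept had a −log10 q of 1.31 to 13.2 in KO stimulated, 8.84 to 13.6 in KO control, 16.6 to 27.05 in WT stimulated and 5.76 to 15.9 in WT control libraries, so equal lists were not equally strict. Lists were merged at 1 bp of overlap. A region needed a call in 2 or more libraries. Genes and start sites came from RefSeq GRCm38.p6 tables, with 21887 protein-coding genes and no start sites on chromosome 18, and nearest means the nearest protein-coding gene body. Above and below a gene mean towards higher and lower coordinates.

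The regions and the 16 gene lists were chosen with earlier results of these data known. Genes named are those of the 10 regions with the best weakest rank, up to 15 genes with 2 or more regions, up to 25 listed genes, up to 10 nearest to regions without a WT control interval and with 3 of 3 KO stimulated calls, up to 5 with no KO stimulated call, and those next to the limit. Wilson 95% intervals cover counting error over regions only. No test over samples was run, since 3 of the 4 groups chose the regions and an exact two-sided permutation of 3 against 3 libraries gives p = 0.1 at the least. A planned count of regions with the genotypes exchanged is not reported, because its comparisons share control libraries. Python 3.11.15, numpy 2.4.6, pandas 2.3.3, SciPy 1.17.1 and matplotlib 3.10.9 were used.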

Additional observations from a re-analysis of the deposited data

Results flagged for a closer look

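The region near Ceacam9, a gene of the carcinoembryonic antigen family, had calls in 0 of 3 KO stimulated libraries. Stimulated minus control calls came to -3 libraries in KO cells and 3 in WT cells. The choice of the regions fixes the WT value and leaves 0 or below for KO cells at all 252, so the opposite signs are no finding. It lies at chr7:16728556-16729174, 2.45 kb above the gene, and was the 1 region of the 252 without a KO stimulated call, against 15.4% of all regions with none. Its ranks were 35696 and 42531 in KO stimulated replicates 2 and 3, with no interval in replicate 1, 31234, 31718 and 32023 in KO control, 32596, 30405 and 34186 in WT stimulated, and 37460 and 38265 in WT control replicates 2 and 3. KO control and WT stimulated ranks lay within the limit and the others past it. The difference between the genotypes was not tested.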

How the results depend on the processing

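Of 39 recomputed values outside the leaving out of libraries, 25 stayed within 1.5 times the count or within the Wilson 95% interval of the share, and 14 did not. This compares values and not which regions were taken. The counts of 298 with all deposited intervals and of 204 with a −log10 q of at least 10 are among the 25. Those sets overlapped 51 and 139 of the 252. Ranking by the deposited fold gave the same 252 regions. Within each library the fold at these regions fell in step with the rank, so this setting is no separate check. Its values, all unchanged, count among the 25. With 50% of the number of intervals per library there were 104 regions, 4.86% of the WT gained ones, with 9.62% within 1 kb of a gene end and 0.962% without a WT control interval. With all deposited intervals the rule took 4.09% of the WT gained regions, and 71.8% of its regions were called in all KO stimulated libraries; the share without a WT control interval is 100 percent there by construction and was not used. With calls that cover 50% of a region there were 107 regions, 2.29% of the WT gained ones, with 85.0% called in all KO stimulated libraries and 6.54% without a WT control interval. Windows of 250 bp to each side of the summits gave 269 regions, with 85.9% called in all KO stimulated libraries. The 3 settings that follow, 2 on ties and 1 on −log10 q, were chosen after seeing the data, as was the split by rank. Between 550 and 1375 intervals of a library were tied at the limit, and outside KO stimulated replicate 1, which kept all of its intervals, the order of ties decided which were kept: leaving all of them out gave 237 regions (228 of the 252 among those overlapped) and keeping all gave 256 (237 of the 252). Intervals with a −log10 q of at least 10 gave 204 regions, 3.19% of the WT gained ones, with 65.2% called in all KO stimulated libraries and 29.9% without a WT control interval. Leaving out each library in turn gave 252 to 358 regions, 5.55% to 8.43% of the WT gained ones, 84.8% to 97.6% called in all KO stimulated libraries, 4.21% to 5.62% within 1 kb of a gene end and 15.1% to 38.2% without a WT control interval, the last without WT control replicate 3. A library fewer in the 3 choosing groups loosens the rule, which leans the count upward, and all 252 were kept each time. A KO stimulated library fewer likewise loosens a call in all of them. The limit was held throughout, also without KO stimulated replicate 1, which set it. The causes of these shifts were not tested. No paired analysis was possible because the results come from no test: the calls of 3 of the 4 groups are fixed by the choice of regions. The sample titles number the replicates and do not say whether equal numbers link libraries across groups. Unknown read depth limits every statement on a missing interval.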
